A study of Homo sapiens with 4 samples.

Results

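The short arm of chromosome 5 (5p) carried 1323 CEBPB peaks in replicate 1 and 1877 in replicate 2, out of 75169 and 97829 on chromosomes 1 to 22 and X. Peaks were taken as lying on 5p when the summit fell within chr5:1-46100000 of the hg19 build, the stretch before the centromeric bands, and the long arm (5q), chr5:50700001-180915260, served for comparison. The authors also deposited a table of regions with their irreproducible discovery rate (IDR). The IDR measures how far a peak's rank holds from one replicate to the other. On chromosomes 1 to 22 and X the table held 25602 distinct regions. Of these regions, here called reproducible, 366 lay on 5p and 1177 on 5q. All samples were of NCM460, a human cell line derived from colon mucosa, cultured in DMEM with serum and given no treatment in the labels. The series held 2 samples immunoprecipitated with an antibody to CEBPB, described as independent experiments, and 2 input samples of sonicated chromatin that was not immunoprecipitated. With 1 group of 2 ChIP samples there is no contrast of conditions, and peak lists hold no expression by which to check the cell type.

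The arm was chosen by the high background at its summits in both replicates. Every comparison of the arms in background, fold, fragments, density or share of peaks in the IDR table is therefore a description and carries no test. Intervals on shares and densities are exact binomial and exact Poisson intervals at the 95% level; they cover counting error over peaks only, and neighbouring peaks are not independent.

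CEBPB is a C/EBP family transcription factor whose basic leucine zipper lets it pair and bind DNA. In epithelial cells it is known for its part in responses to inflammatory cytokines and to stress. A ChIP-seq peak caller compares the pile of immunoprecipitated fragments at a site with a background taken from the input around it. A site reaches a high fold enrichment either with many fragments or over little background.

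Background is the level expected at the summit in units of the caller's scaled pileup, here called expected fragments. On that scale ChIP fragments are scaled down, by a different factor in each replicate. Numbers of fragments are unscaled counts, so fragments and background given side by side are not in the same unit. The ratio of the arms within a replicate does not depend on the scale, whereas a comparison of backgrounds between replicates does. Background and fragments were recovered from the fold and −log10 p that the authors deposited for every summit. Taken over 1 Mb bins of 5p, the median was 3.68 expected fragments in replicate 1 and 4.0 in replicate 2. Bins of 5q had medians of 2.00 and 2.01. The ratio of 5p to 5q was thus 1.84 and 1.99, or 1.91 ± 0.102 (SD, n = 2). Among 41 chromosome arms 5p ranked first in both replicates, ahead of 12p with 3.00 and 3.19 expected fragments. These are the values by which the arm was chosen, so they describe it and support nothing further.

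**Figure D1:**
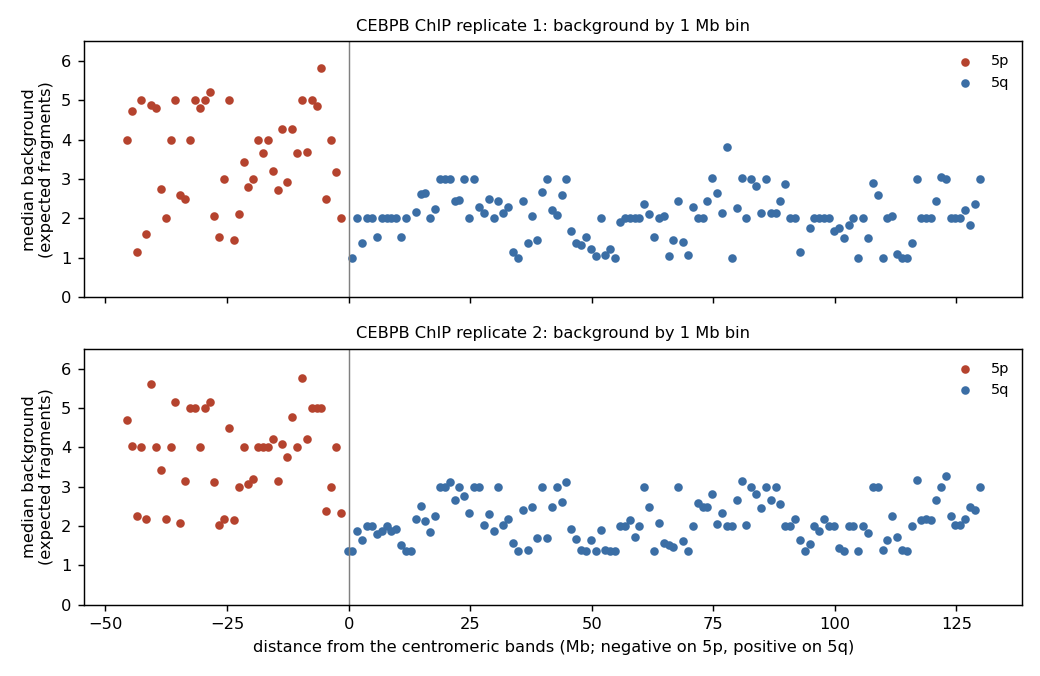
Median background at CEBPB summits in expected fragments (vertical axis) per 1 Mb bin, against the distance of the bin from the centromeric bands in Mb (horizontal axis), for 5p (red) and 5q (blue) in replicate 1 (top) and replicate 2 (bottom). Of 45 bins with a summit on 5p, 22 in replicate 1 and 29 in replicate 2 lay above the highest full bin of 5q. Expected fragments are in units of the scaled pileup.

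The level was not even along 5p. Bins ran from 1.16 to 5.81 expected fragments in replicate 1 and from 2.03 to 5.77 in replicate 2, against 1.00 to 3.83 and 1.36 to 3.28 on 5q. The groups of bins therefore overlapped. In replicate 1, 39 of 45 bins of 5p stood above the median bin of 5q, and in replicate 2, 45 of 45. The highest bins were 40 to 41 Mb with 5.81 and 5.00 expected fragments in replicates 1 and 2, 36 to 37 Mb with 5.00 and 5.77, and 5 to 6 Mb with 4.90 and 5.62. The lowest were 2 to 3 Mb with 1.2 and 2.3, 19 to 20 Mb with 1.53 and 2.03, and 22 to 23 Mb with 1.45 and 2.15. These low medians rest on few summits: 2, 5 and 4 in replicate 1 and 8, 23 and 13 in replicate 2. The highest 5q bin of replicate 1, with 3.83, rests on 7. The order of the bins was alike in the replicates, with a Spearman rho of 0.878 over 45 bins, which share the genome and possibly an input.

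Background moved with the number of summits in a bin on both arms (rho 0.705 and 0.744 over the 45 bins of 5p, 0.591 over 127 bins and 0.699 over 129 bins of 5q). Bins with 1 to 19 summits had a median of 2.5 and 2.3 expected fragments on 5p and 1.5 and 1.4 on 5q. Bins with 20 to 49 summits had 4.0 and 3.44 on 5p and 2.00 and 2.03 on 5q. Bins with 50 or more had 5.00 and 4.49 on 5p and 2.52 and 2.57 on 5q. The 5p value was the higher of the pair in every class and replicate.

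The background values themselves fell on steps of whole input reads. The caller takes the largest of several estimates: the reads over a stretch of 1 fragment length, the reads within 1 kb or within 10 kb scaled to that length, and a floor for the whole genome. The shortest peaks, 153 bp in replicate 1 and 156 bp in replicate 2, were taken as the fragment lengths, and with them every summit fell on one of these steps, within 0.0003 expected fragments. On 5p, 0.849% of 1414 summits (interval 0.439 to 1.48%) sat at the genome floor in replicate 1 and 0.544% of 2022 summits (0.272 to 0.971%) in replicate 2. On 5q the shares were 8.03% (7.18 to 8.94%) and 13.3% (12.4 to 14.3%). Hardly any 5p site had the lowest background possible.

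Input reads per window were higher on 5p at each width. Where the 1 kb window set the background, its median was 25 reads on 5p (quartiles 17 and 34, 473 summits) and 14 on 5q (10 and 19, 1258 summits) in replicate 1. In replicate 2 it was 27 (21 and 34, 664 summits) and 15 (12 and 19, 1474 summits). Where the 10 kb window set it, the median was 163 reads on 5p and 95 on 5q in replicate 1, and 198 and 116 in replicate 2. The ratios of 5p to 5q were 1.79 and 1.80 for the 1 kb window and 1.72 and 1.71 for the 10 kb window. A window is seen only where it gave the largest estimate, so these reads lie above the average of the arm. Each step of the 1 kb window is also a step of the 10 kb window, and such values were counted under 1 kb. Some of the 1 kb values may therefore come from the 10 kb window.

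Few summits were called near the bound of the arm. The last ones inside it lay in band 5p12, and no peak was called from there to the centromeric bands. In replicate 1 they had 155 fragments over a background of 3.21 (chr5:44808736-44809177) and 18 over 2.00 (chr5:44939377-44939565). In replicate 2 they had 170 over 3.12 (chr5:44808752-44809244) and 14 over the floor of 1.36 (chr5:44943837-44944020). Between the arms there were 1 summit in replicate 1 and 2 in replicate 2. The single one of replicate 1, at chr5:49963182-49963461, had 39 fragments over the floor of 1.00. In replicate 2 the same site (chr5:49963216-49963448) had 48 over 1.56, and chr5:50225179-50225334 had 13 over the floor. On 5q the first summits of replicate 1 had 72 fragments over 2.00 (chr5:51370183-51370546) and 8 over the floor of 1.00 (chr5:51439905-51440097). The first of replicate 2 had 11 and 19 fragments, both over the floor (chr5:50764202-50764411 and chr5:50772372-50772584).

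At called sites, fragments immunoprecipitated with CEBPB were also more numerous on 5p. At the reproducible regions of 5p the median was 89 fragments in replicate 1 (quartiles 54 and 141) and 116 in replicate 2 (80.3 and 168). At those of 5q it was 57 (38 and 92) and 79 (53 and 116). The ratio was 1.51 ± 0.07 (SD, n = 2). Over a higher background a site needs more fragments to reach the same fold. The lowest fold of a region was alike on the arms, 7.61 on each in replicate 1, and 8.16 on 5p and 8.05 on 5q in replicate 2. The medians therefore cover only sites that passed such a limit, and how far they follow from the background was not tested. The quartile ranges of the arms overlapped in both replicates. Over all summits the medians were 32 and 36 fragments on 5p and 24 and 27 on 5q. The median summit of 5p had more fragments than that of any other of the 41 arms in both replicates. The next were 12p and 20q, each with 28 and 34, and both also ranked among the first 4 arms by background.

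Fold enrichment, which sets fragments against background, was lower on 5p. Its median at the reproducible regions was 14.8 on 5p (quartiles 10.9 and 20.4) and 15.4 on 5q (11.2 and 21.9) in replicate 1. In replicate 2 it was 14.6 (11.4 and 21) and 16.1 (11.9 and 23.1). The ratio was 0.935 ± 0.036 (SD, n = 2), a small distance beside the spread among regions. Over all summits the median fold was 6.15 and 5.80 on 5p, the lowest of the 41 arms in both replicates, and 6.98 and 6.53 on 5q. Peaks at reproducible regions were slightly wider on 5p, with a median of 373 bp against 339 bp in replicate 1 and 389.5 bp against 360 bp in replicate 2.

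Reproducible CEBPB sites were spread over all 12 bands of 5p at 7.94 regions per Mb (interval 7.15 to 8.80), against 9.04 on 5q (8.53 to 9.57). All peaks of the lists stood at 28.7 per Mb (27.2 to 30.3) in replicate 1 and 40.7 (38.9 to 42.6) in replicate 2 on 5p, and at 27.3 and 35.7 on 5q. In the lists 5p was thus the denser arm, and in the IDR table the sparser one. The intervals of the arms overlapped for the replicate 1 list and for the IDR table, and neither order was tested.

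The densest band was 5p15.1, home of MYO10, an unconventional myosin of filopodia, and of BASP1, a membrane-bound signalling protein. It held 47 regions at 13.8 per Mb (interval 10.2 to 18.4), with medians of 112 and 126 fragments. Band 5p13.1 carries OSMR and LIFR, receptors for cytokines of the IL-6 family, PTGER4, a prostaglandin E2 receptor, and the complement genes C6, C7 and C9. It held 49 regions at 12.0 per Mb (8.84 to 15.8), with the highest median of any 5p band in replicate 2, 135 fragments. Band 5p13.2, with the interleukin 7 receptor gene IL7R and the ubiquitin ligase subunit gene SKP2, held 51 regions at 11.1 per Mb (8.25 to 14.6). The intervals of these bands overlap, and their order was not tested.

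The sparsest band was 5p14.3, a gene-poor band that carries the cadherin genes CDH12 and CDH18. It had 11 regions at 2.24 per Mb (interval 1.12 to 4.02). Band 5p15.33 at the telomere, which carries genes of the IRX homeobox family and SLC9A3, the sodium/proton exchanger of the intestinal brush border, had 18 regions at 4.0 per Mb (2.37 to 6.32). It also had the lowest median fold of the 5p bands, 12.2 in each replicate. Band 5p14.1, of the same dark stain class as 5p14.3, had 38 regions at 8.84 per Mb (6.25 to 12.1). No hg19 gene annotation was used, so bands are described by genes known to lie in them and no peak is assigned to a gene.

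**Figure D2:**
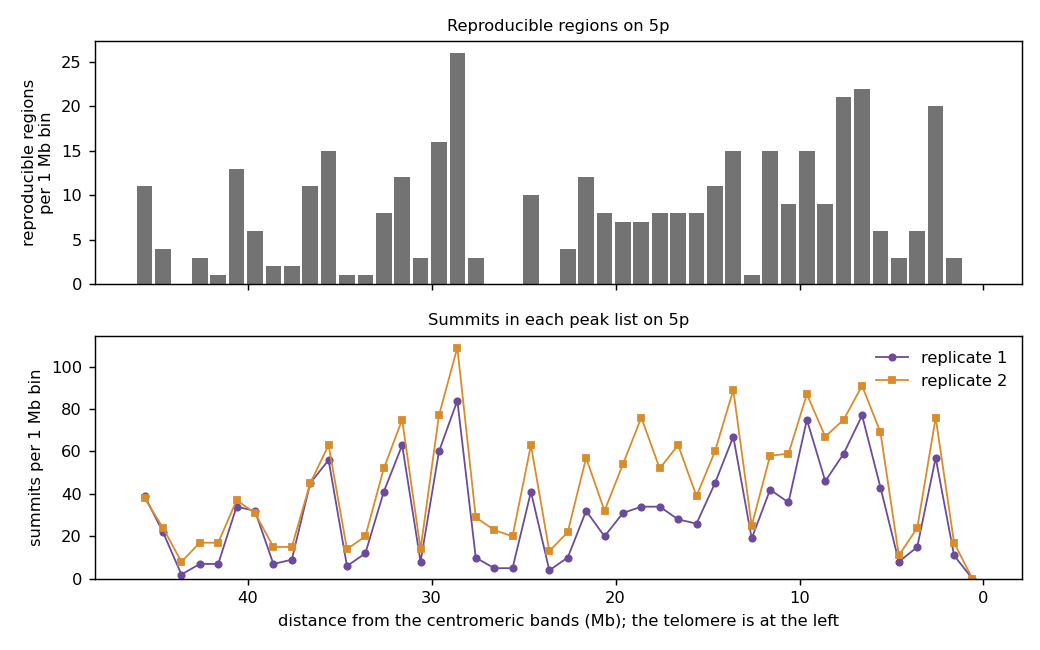
Reproducible CEBPB regions (top, bars) and summits in the lists of replicates 1 and 2 (bottom, lines) per 1 Mb bin of 5p, against the distance from the centromeric bands in Mb, with the telomere at the left. The fullest bin held 26 reproducible regions and 5 bins held none.

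By bin, the most reproducible regions were at 17 to 18 Mb in 5p15.1 with 26, at 39 to 40 Mb with 22 and at 38 to 39 Mb with 21, both of the latter in or beside 5p13.1. Of 46 full bins, 5 had none: 2 to 3, 19 to 20, 20 to 21, 22 to 23 and 45 to 46 Mb. All but the last still had summits in both lists, between 2 and 5 in replicate 1 and between 8 and 23 in replicate 2. The widest stretch of 5p without a reproducible region was 2.57 Mb inside 5p14.3, from chr5:18578635-18578845 to chr5:21152505-21153286. The next, 1.73 Mb, ran from 5p14.3 into 5p14.2.

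Some regions stood in small groups. On 5p, 115 of 366 regions (31.4%, interval 26.7 to 36.4%) had another within 10 kb, against 418 of 1177 (35.5%, 32.8 to 38.3%) on 5q, and the intervals overlapped. Groups of 4 lay in 5p15.32 (chr5:5340208-5351925), in 5p14.3 (chr5:21684719-21694264) and in 5p12 (chr5:43007502-43020836), and none was larger. The 5p15.32 group had regions of up to 234 and 253 fragments in replicates 1 and 2, and that in 5p14.3 up to 123 and 127. With a distance of 15 kb the 5p12 group grew to 7 regions over 28.7 kb (chr5:42992111-43020836), with mean folds between 10.7 and 19.9.

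The strongest 5p region by mean fold lay in 5p15.31 at chr5:9376465-9377267. It had 189 fragments over a background of 2.69 in replicate 1 and 243 over 4.0 in replicate 2, and a mean fold of 43.4 ± 6.10 (SD, n = 2). Its rank by fold among all 25602 regions was 455. The second, in 5p15.1 at chr5:17896329-17897265, had 293 and 292 fragments, nearly the same in both libraries, and folds of 51.6 and 29.2. Its background was 4.28 in replicate 1 and 7.02 in replicate 2, and a fragment also counted for less in the scaled pileup of replicate 2 (0.80 against 0.927). The next were chr5:8176108-8176726 in 5p15.31 with a mean fold of 39.1 ± 3.92 (SD, n = 2) and chr5:36373354-36373959 in 5p13.2 with 38.4 ± 2.27 (SD, n = 2). Among these 4 regions the spread between replicates was larger than the distance from one to the next, so their order is not resolved.

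Regions 5 to 10 by fold had mean folds of 35.4 down to 32.5. They lay in 5p15.32 (chr5:4995001-4995412), 5p14.2 (chr5:23893638-23894062), 5p12 (chr5:44808709-44809230 and chr5:43427898-43428715), 5p13.2 (chr5:35771056-35772098) and 5p14.3 (chr5:21152505-21153286). The region in 5p14.2 repeated best, with folds of 35.2 and 35.4, and the one in 5p13.2 least, with 44.3 and 22.9 from 259 and 257 fragments. In the latter the background was 4.44 and 8.00.

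By fragments the leading sites were others. The tallest region of 5p, in 5p13.2 at chr5:36657517-36658099, had 299 fragments in replicate 1 and 304 in replicate 2. Their sum, 603, was the highest of all 25602 regions of the genome. Its background was 14 and 13 expected fragments, its fold 18.5 and 17.4, and its rank by fold among all regions 10241. In 5p13.3, chr5:32390864-32391603 had 278 and 302 fragments over 10.0 and 12.0, and stood 7th of the genome by fragments and 7365th by fold. In 5p15.1, chr5:15008539-15009014 had 281 and 291 fragments over 11.0 and 6.40. The 5p15.1 site at chr5:17896329-17897265 and the 5p13.2 site at chr5:36373354-36373959 were among the 5 tallest as well as among the 4 strongest by fold.

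**Figure D3:**
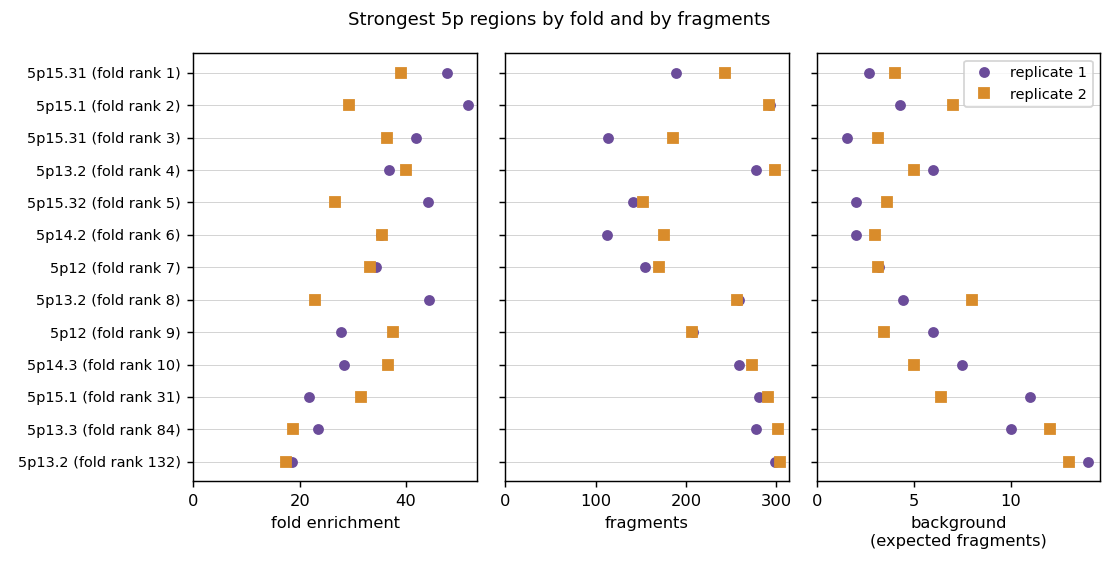
Fold enrichment (left), fragments (middle) and background in expected fragments (right) in replicate 1 (circles) and replicate 2 (squares) for the 10 strongest 5p regions by mean fold and for those of the 5 tallest by fragments not among them. The last row, ranked 132 on 5p by fold, has the most fragments, 299 and 304, and a background of 14 and 13. Background is in units of the scaled pileup, and fragments are unscaled counts.

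The ranking decided how many leading CEBPB sites lay on 5p. The arm held 1.43% of all regions (interval 1.29 to 1.58%). Of the 100 tallest regions by fragments, 16 were on 5p (9.43 to 24.7%), and of the 100 strongest by fold, 0 (an upper limit of 3.62%). Among the top 500 the numbers were 35 by fragments (4.92 to 9.60%) and 1 by fold (0.00506 to 1.11%). Among the top 2500 they were 92 and 14. On 5q, which held 4.60% of regions, the top 500 had 16 by fragments and 27 by fold. Heights have a ceiling if reads of one length are limited to 1 per position and strand, at 306 fragments in replicate 1 and 312 in replicate 2. Above 50% of it lay 21.6% of the 5p regions in replicate 1 and 28.7% in replicate 2, against 6.80% and 11.5% on 5q. Differences among the tallest 5p sites can be compressed by it, which was not tested.

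**Figure D4:**
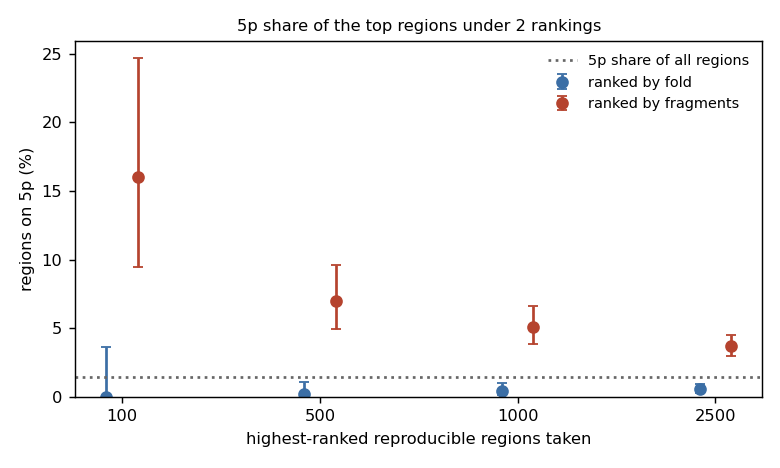
Share of 5p (vertical axis, percent, with 95% exact binomial intervals) among the 100, 500, 1000 and 2500 highest-ranked reproducible regions (horizontal axis), ranked by fold (blue) or by the sum of fragments (red). The dotted line is the 5p share of all regions, 1.43%, which lies below the points by fragments and above those by fold.

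At like height, 5p sites had lower folds. Among summits of 80 or more fragments the median background was 6.0 expected fragments on 5p in each replicate, and 3.21 and 3.12 on 5q. The median fold of these summits was 17.4 and 15.2 on 5p and 25.4 and 22.5 on 5q. Among summits of 40 to 79 fragments the median fold was 8.81 and 7.5 on 5p and 13.4 and 11.3 on 5q. Below 20 fragments the arms were closer, with 4.19 and 4.04 against 4.97 and 4.74. Among summits of like height the fold is set almost entirely by the background, so these folds restate the value by which the arm was chosen.

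Within classes of background the arms were close in fragments. Summits over a background of 4 to 6 had a median of 34 fragments on 5p and 38 on 5q in replicate 1, and 39 and 40 in replicate 2. Those over 2 to 3 had 21 and 22 in replicate 1 and 24 and 26 in replicate 2. Those over 6 or more had 61 on 5p and 54 on 5q in replicate 1, and 58 and 55 in replicate 2. The median fold stayed lower on 5p in each background class of both replicates. Over a background of 4 to 6 it was 5.87 and 5.64 on 5p and 6.81 and 6.20 on 5q. The mix of backgrounds also differed. A background of 6 or more was found at 27.4% and 26.8% of 5p summits and at 4.81% and 4.87% of 5q summits. A background below 2 was found at 8.06% and 3.56% of 5p summits and at 35.9% and 32.4% of 5q summits.

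Sharing between replicates was slightly above that of the genome in replicate 1 and slightly below it in replicate 2. A partner in replicate 2, overlapping by at least 1 bp, was found for 1112 of 1323 replicate 1 peaks of 5p (84.1%, interval 82.0 to 86.0%), against 81.5% (80.2 to 82.7%) on 5q and 82.0% over all chromosomes. In replicate 2, 1101 of 1877 (58.7%, 56.4 to 60.9%) had a partner, against 61.9% (60.5 to 63.3%) and 62.8%. Replicate 2 had 1.42 times as many peaks as replicate 1 on 5p, 1.31 times on 5q and 1.3 times over all chromosomes. Peaks without a partner on 5p had medians of 20 and 25 fragments in replicates 1 and 2, and shared ones 37 and 55. The same kinds of peak on 5q had 15 and 18, and 28 and 39.

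Relative to replicate 1, the list of replicate 2 grew most in the dark bands of 5p, 1.91 times against 1.37 times in the Giemsa-negative bands. In 5p14.3 the list grew from 53 peaks in replicate 1 to 122 in replicate 2, and in 5p14.1 from 127 to 222. Over both bands, 43.9% of 344 replicate 2 peaks (interval 38.6 to 49.3%) had a partner, whereas 85.6% of 180 replicate 1 peaks (79.6 to 90.3%) did. In the dark bands of 5q the shares were 54.4% of 864 (51.0 to 57.8%) and 81.4% of 580 (78.0 to 84.5%). In the Giemsa-negative bands of 5p they were 60.0% of 909 (56.7 to 63.2%) and 82.7% of 663 (79.6 to 85.5%). The Giemsa-negative bands next to the dark ones also grew, 5p13.3 from 171 peaks to 259 and 5p14.2 from 26 to 43. Of their replicate 2 peaks, 54.8% and 53.5% had a partner.

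The strongest 5p peak of replicate 1 without a partner, by fold, lay in 5p13.3 at chr5:33091695-33092037, with a fold of 19.2 and 61 fragments over a background of 2.00. That of replicate 2 lay in the same band at chr5:28996654-28996953, with a fold of 15.4 and 66 fragments over 2.50. Both were well above the median of their kind in fragments.

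The IDR table held fewer of the shared peaks on 5p. Of the shared 5p peaks, 33.1% (interval 30.3 to 35.9%) in replicate 1 and 33.3% (30.6 to 36.2%) in replicate 2 were in the table, against 40.9% (39.1 to 42.8%) and 41.0% (39.2 to 42.8%) on 5q. Among shared peaks of 50 or more fragments the gap was wider. In replicate 1, 296 of 415 on 5p (71.3%, 66.7 to 75.6%) and 691 of 757 on 5q (91.3%, 89.0 to 93.2%) were in the table. In replicate 2, 356 of 618 on 5p (57.6%, 53.6 to 61.5%) and 935 of 1111 on 5q (84.2%, 81.9 to 86.3%) were. Among peaks of like height the fold is set almost entirely by the background. The gap may therefore restate the value by which the arm was chosen, and it is a description only.

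**Figure D5:**
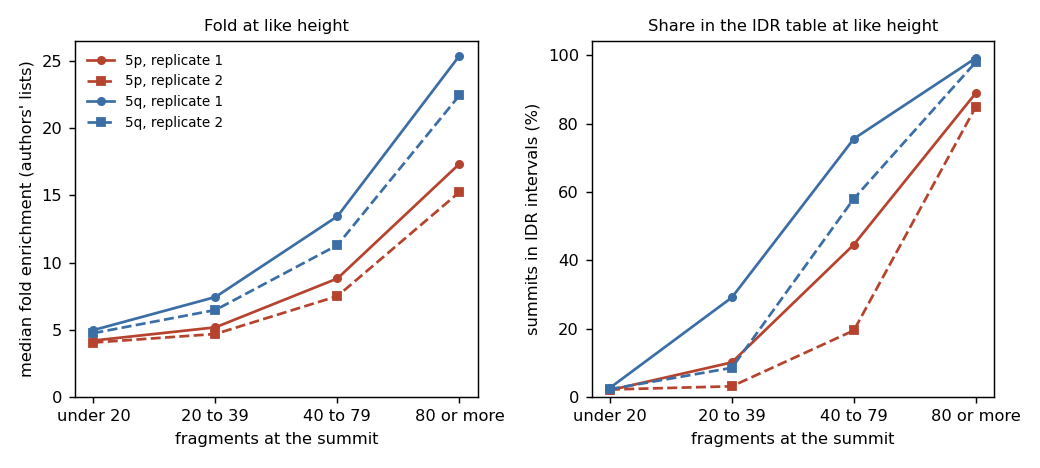
Median fold enrichment of the authors' lists (left) and share of summits in intervals of the IDR table in percent (right) by class of fragments at the summit (horizontal axes), for 5p (red) and 5q (blue) in replicate 1 (solid, circles) and replicate 2 (dashed, squares). From 20 fragments up, the 5p points lie below the 5q points of the same replicate in both panels.

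The 5p peaks of 50 or more fragments that the table left out, 119 in replicate 1 and 262 in replicate 2, had median folds of 7.95 and 7.77 over backgrounds of 7.0 and 6.0. Those it held had 16.3 and 15.1 over 5.00 in each replicate. The lowest fold of a 5p region in the table was 7.61 in replicate 1 and 8.16 in replicate 2. The following sites were chosen after their values were seen. The tallest one left out lay in 5p14.3, with 125 fragments over a background of 28.0 in replicate 1 (chr5:21485644-21485892) and 198 over 32.0 in replicate 2 (chr5:21485621-21485901), and folds of 4.03 and 4.83. In 5p15.2, chr5:10485347-10485840 had 115 fragments over 7.5 and a fold of 12.7 in replicate 1. In 5p15.31, chr5:9519647-9520002 had 136 fragments over 4.27 and a fold of 20.8 in replicate 2. A low fold was thus common among the peaks left out. The sites in 5p15.2 and 5p15.31 had folds above the lowest of the table in the replicate named. Their folds in the other replicate are not given here.

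At regions in the table the replicates marked the same bases. Their summits on 5p lay a median of 6 bp apart (quartiles 3 and 12), and 97.8% of 366 lay within 50 bp (interval 95.7 to 99.1%), against 8 bp and 98.1% on 5q. Across the 366 regions, Spearman's rho between replicates was 0.905 for fragments, 0.663 for background and 0.574 for fold. On 5q it was 0.877, 0.503 and 0.594 over 1177 regions. These are correlations across sites of the same libraries and are descriptive.

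To ask which 5p sites differed between the libraries, fragments at all 25602 regions were compared with the share usual among regions of like height (two-sided exact binomial tests, Benjamini-Hochberg adjusted over all regions). Over the genome 2.93% of regions were called at an adjusted p of at most 0.05. On 5p 13 of 366 were (3.55%, interval 1.9 to 6.0%), a share near the background. Of these, 7 had more fragments in replicate 2, a direction called at 1.24% of all regions, and 6 had more in replicate 1, called at 1.69%. The tests compare these libraries and cover counting error only.

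Of the 5 smallest adjusted p on 5p, 3 belonged to sites with more fragments in replicate 2, the first 2 among them, and 2 to sites with more in replicate 1. In 5p14.1, chr5:28737371-28738244 had 53 fragments in replicate 1 and 158 in replicate 2 (exact binomial test, adjusted p = 2.02e-05), over backgrounds of 2.48 and 4.68. In 5p13.1, chr5:41820297-41820626 had 43 and 135 (exact binomial test, adjusted p = 7.80e-05). In 5p15.1, chr5:18244454-18245009 had 44 and 118 (exact binomial test, adjusted p = 0.00329). Toward replicate 1, chr5:6408672-6409120 in 5p15.31 had 197 and 136 fragments (exact binomial test, adjusted p = 0.00103). In 5p13.1, chr5:38753266-38753662 had 154 and 106 (exact binomial test, adjusted p = 0.00209). By band, 3 of the 13 calls lay among the 38 regions of 5p14.1 and 3 among the 49 of 5p13.1. There were 0 among the 15 regions of 5p15.32, 37 of 5p15.2, 8 of 5p14.2, 51 of 5p13.2 and 29 of 5p12. With 2.93% of all regions called, these counts are too small to order the bands.

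The ratio of replicate 2 to replicate 1 fragments was alike on the arms, with a median of 1.28 on 5p (quartiles 1.09 and 1.61) and 1.31 on 5q (1.12 and 1.58). Among 5p bands it ran from 1.1 in 5p15.32 to 1.53 in 5p14.1. The background of the 5p sites, their fragments and their place in the IDR table moved together in these libraries. The part of the background in which sites reached the table was not tested. Neither was the source of the high input signal on 5p.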

How the data were processed

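CEBPB ChIP and input libraries of NCM460 cells were sequenced as paired reads, per the labels' protocols. Per the submitters' processing notes, peaks are on the hg19 build, and the tools listed are MACS2 2.1.2, Bowtie2 2.3.4, bedtools 2.25.0, SAMtools 1.9 and FastQC 0.11.7, without settings. No source used here says which input served which ChIP sample. The deposited peak lists, called per sample, give for each summit a score, a fold enrichment, a −log10 p and a −log10 q. The authors' deposited IDR table holds regions with a global IDR of at most 0.05. Its interval columns matched the replicate lists, from which all values were taken. Its other 4 columns of values per sample were not used.

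Whole fragments and the background were solved from the deposited fold, (scaled pileup + 1)/(background + 1), and the Poisson −log10 p. The scale per ChIP read was 0.927 in replicate 1 and 0.800 in replicate 2, and 100.0% of summits gave whole fragments within 0.005 of the −log10 p. A second solution existed for 0.679% and 1.75% of summits, where the closest fit was taken. Of 3974 and 3980 simulated summits 100.0% were recovered. Totals of reads per library were not analysed here, and depth enters as the fragments behind each summit. A region takes the value of its summit with the highest −log10 p in each replicate. Bands of hg19 came from circlize 0.4.16. Arms were taken without centromeric, variable and stalk bands. Overlaps used bedtools 2.31.1. The replicate test used a running median of 1001 regions of like height. For that comparison, of 200 regions simulated with 3-fold odds among 25602, 89.5% were recovered, with 7 calls among the rest. Tables and tests were made with pandas 2.3.3, SciPy 1.17.1 and NumPy 2.4.6 in Python 3.11.15, and figures with matplotlib 3.10.9.

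The arm, its bounds and the lists were chosen with earlier results of these data known. Named sites are the 10 5p regions of highest mean fold, the 5 with most fragments, the 5 smallest adjusted p in the replicate test, the strongest peaks without a partner by fold, and the summits at the arm's bounds. Named bins have the most or fewest regions or the highest or lowest background. The parts of the rule on genes near sites and on sequences at summits were not applied, because no hg19 annotation or genome was used here. All 40 genes listed for 5p are on chromosome 5 in the RefSeq gene table (GRCh38.p14), which served for names only. Positions are hg19, counted from 1.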

Additional observations from a re-analysis of the deposited data

How the results depend on the processing

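The 5p to 5q ratio of background, 1.91, became 1.75 over reproducible regions alone and 1.75 without summits at the floor. It was 1.79 with the 1 kb window and 1.71 with the 10 kb window. It stayed within the spread of the replicates in the other settings of bins, arm ends and reference arms, and was 1.84 to 1.99 with a replicate left out. The mean of 34.7 peaks per Mb on 5p was 28.7 to 40.7 with a replicate left out. The 7.94 regions per Mb were 4.60 with the stricter IDR limit of 0.01, and 24.7 for summit pairs within 100 bp whose q-values were 0.01 or lower. Over all summits the 5p to 5q ratio of fragments was 1.33 in place of 1.51, that of fold 0.885 in place of 0.935, and that of width 1.00 in place of 1.09; with a replicate left out they were 1.47 to 1.56, 0.910 to 0.960 and 1.08 to 1.1. The mean share of 5p peaks with a partner was 71.4%, and 58.7 to 84.1% with a replicate left out. The 13 regions that differed between libraries were 7 under the stricter IDR limit, where 15504 regions were tested, and 18 with 1 share for all regions. The 35 regions of 5p among the 500 tallest were 16 among the top 100, and 35 to 36 by the fragments of 1 replicate. The share of tall shared 5p peaks in the IDR table, 64.5% as the mean of the replicates, was 54.7% from 40 fragments up and 86.5% from 80 up, and 57.6 to 71.3% with a replicate left out. The window settings, the bins of 20 to 49 summits and the alternatives for tall peaks and ranks were chosen after seeing the data. No paired analysis was possible because there is 1 group of ChIP samples and the input samples have no values of their own here; the replicate block taken as the ratio within each replicate gave 1.91. The lists hold only summits that passed the caller's threshold, so input signal away from peaks was not seen.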
